A study of Mus musculus with 32 samples.

Results

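The 10 genes described here, *Fbxo2*, *Layn*, *Lix1*, *Btn2a2*, *Vps50*, *Cpxm1*, *Ddit4l*, *Madcam1*, *Maoa*, and *Cryzl2*, were taken from the 34453 genes of the count table because earlier fits of the same counts showed large rises with Nrf2 that recurred from mouse to mouse, and because their known roles lie mostly outside the handling of oxidants. All 10 were found in the table, and all 10 passed the filter on low counts in the comparison of the eyes at both ages. *Btn2a2* passed only through its Nrf2 eyes, and it failed the filter among control eyes alone. The 10 genes were selected on the difference between Nrf2 eyes and control eyes, and that difference is therefore given as a description, with its standard error and without a test. Tests were run on other comparisons. They were the relation of each gene to the amount of transgene among Nrf2 eyes and the change between P20 and P40 within each arm. These tests draw on the same libraries, so they are not independent of the choice.

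RNA of the retinal pigment epithelium (RPE), the pigmented cell layer that lies against the photoreceptors, was measured in both eyes of 16 mice, 7 at P20 and 9 at P40. By their labels all were *rd1* mice, a strain whose rods die early from a *Pde6b* mutation and whose cones die afterward. All 32 eyes received the vector AAV-Best1-GFP. To this, AAV-Best1-Nrf2 was added in 1 eye of every animal (Nrf2 eyes), and the fellow eyes without it are the control eyes. Per the study's methods, the added vector had another capsid and raised the total dose, so dose, capsid, and Nrf2 cannot be told apart. On strain, the methods differ from the labels. They divide the P40 animals between *rd1* and CD1, a strain without this degeneration, and also give another number of P20 animals. The labels were followed, but the P40 group may hold both strains, in which case strain and age cannot be told apart. The *Best1* promoter directs expression to the RPE, and the transgene is the human *NFE2L2* cDNA, which has its own entry in the table. Total counts ranged from 16548332 to 50542797 per library. Levels are CPM, counts scaled to the size of the library, after TMM normalization over all 32 libraries, and 3 counts correspond to between 0.0566 and 0.182 CPM. The libraries came from 2 sequencing runs that the sources used here do not assign to libraries, so run and group cannot be told apart. Library titles begin with M at P20 and with A at P40, and each letter covers both Nrf2 and control eyes. What the letters mark is not stated, and it cannot be told apart from age.

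Nrf2 is a basic leucine zipper transcription factor that Keap1 holds for degradation. When electrophiles or oxidants release it, it pairs with a small Maf protein and binds the antioxidant response element, a short sequence near the genes it activates. It is best known for enzymes that make glutathione, reduce quinones, and supply NADPH. The 10 genes have other known roles, which range from ubiquitin ligation and endosome traffic to cell adhesion and the breakdown of monoamines.

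All 10 RPE markers of a fixed list were detected in each group, and their summed level ran from 5558 to 71369 CPM over the libraries. The RNA was not pure RPE RNA. In Nrf2 eyes at P40, 7 of 7 cone markers and 5 of 10 RPE markers were lower and 5 of 8 macrophage markers were higher (edgeR quasi-likelihood test, adjusted over all genes), where 1.23% of all genes were called lower and 3.33% higher. Fewer cells of a type and less RNA per cell cannot be told apart in such samples. Summed macrophage markers ran from 63.9 to 453 CPM in control eyes and from 112 to 411 CPM in Nrf2 eyes at P40, and summed endothelial markers from 81.7 to 170 CPM and from 44.7 to 260 CPM, so that the groups overlapped for both lists. The part of these cells in the results was not tested.

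Transgene levels went against the label in a pair of P20 libraries from different mice. The library labelled control of mouse 3 had 1098 CPM of *NFE2L2*, and the library labelled Nrf2 of mouse 4 had 1082 CPM, whereas the other P20 Nrf2 eyes had 4810 to 9506 CPM. The other control eyes were not free of it, with 0.924 to 154 CPM at P20 and 0 to 99.2 CPM at P40. These libraries were more alike than any of the other 495 pairs of libraries. The chi-square of their counts was 7.83 per degree of freedom, against at least 48.4 in the other pairs. Among the 10 genes, 9 were highest in the library labelled control of mouse 3 among the 7 P20 control eyes, where 11.3% of all genes tested were, and 10 were lowest in the library labelled Nrf2 of mouse 4 among the 7 P20 Nrf2 eyes, where 18.1% of all genes were. *Fbxo2* stood at 77.1 CPM in the former library and 75.1 CPM in the latter, and *Lix1* at 36.8 CPM and 36.7 CPM. Several results that rest on these libraries are also given without P20 mice 3 and 4. The P20 log2 fold changes of *Vps50*, *Madcam1*, *Cpxm1*, *Cryzl2*, and *Ddit4l* are given with all mice only.

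The bases around the RefSeq start of each gene (build GRCm38.p6) were searched on both strands for TGACNNNGC, the core of the antioxidant response element. The promoter windows ran from 250 bases before that start to 50 bases after it. All 10 genes had a window, and the core was found in 3 of them, against 12.4% of all 32851 promoters and 14% of the promoters of genes tested. In a fixed list of known redox targets of Nrf2, 8 of 16 promoters held it. The windows of the 3 genes with a match are printed 5′ to 3′ on the strand of the gene and end at the base before the start. The core is in capitals. They are printed because they hold the recognition letters of Nrf2, and sequence outside the windows was not searched.
*Lix1*, chr17:17402436-17402685, plus strand: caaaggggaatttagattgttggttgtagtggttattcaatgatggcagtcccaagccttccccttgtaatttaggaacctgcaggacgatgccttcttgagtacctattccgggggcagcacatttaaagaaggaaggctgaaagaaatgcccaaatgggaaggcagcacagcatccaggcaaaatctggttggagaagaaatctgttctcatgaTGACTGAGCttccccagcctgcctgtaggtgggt
*Cpxm1*, chr2:130397630-130397879, minus strand: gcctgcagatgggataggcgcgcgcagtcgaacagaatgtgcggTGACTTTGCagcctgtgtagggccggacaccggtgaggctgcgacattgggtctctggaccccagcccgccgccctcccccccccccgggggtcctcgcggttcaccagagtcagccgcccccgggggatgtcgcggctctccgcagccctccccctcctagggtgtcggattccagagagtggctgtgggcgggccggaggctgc
*Ddit4l*, chr3:137623422-137623671, plus strand: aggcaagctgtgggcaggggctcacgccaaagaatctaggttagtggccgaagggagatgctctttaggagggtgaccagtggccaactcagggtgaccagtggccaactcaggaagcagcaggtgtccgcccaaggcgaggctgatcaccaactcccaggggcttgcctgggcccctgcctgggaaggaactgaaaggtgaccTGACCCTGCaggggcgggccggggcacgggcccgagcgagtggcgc
The match began 34 bases before the RefSeq start in *Lix1*, 206 bases before it in *Cpxm1*, and 46 bases before it in *Ddit4l*. The printed *Ddit4l* window lies inside that gene as GENCODE places it, chr3:137621612-137628333, so it is upstream of the RefSeq start only. The AP-1 letters TGANTCA were in 0 of the 10 windows, against 7.81% of all promoters, and the E-box letters CACGTG in 1 of 10, that of *Vps50*, against 7.15%. The antioxidant core and the AP-1 letters can overlap. A match describes letters and not binding, and the other 7 genes were searched in these windows only.

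In Nrf2 eyes, each of the 10 genes was higher than in the control eye of the same mouse in 7 of 7 pairs at P20 and in 9 of 9 pairs at P40. Among all genes tested, 5.59% were higher in each P20 pair and 3.55% in each P40 pair. At P40, the lowest Nrf2 eye exceeded the highest control eye for 10 of 10 genes, where 1.17% of all genes did so. At P20 this was true of 4 of 10 genes against 1.26% of all genes, and of 10 of 10 genes against 5.75% once the library labelled control of mouse 3 and the library labelled Nrf2 of mouse 4 were left out. These shares come from the contrast that chose the genes, so nothing further is read from them. The median log2 fold change over the 10 genes was 2.79 at P20, 3.20 at P40, and 3.31 at P20 without mice 3 and 4, whereas the median over all genes tested was −0.04 at P20 and −0.03 at P40.

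**Figure D1:**
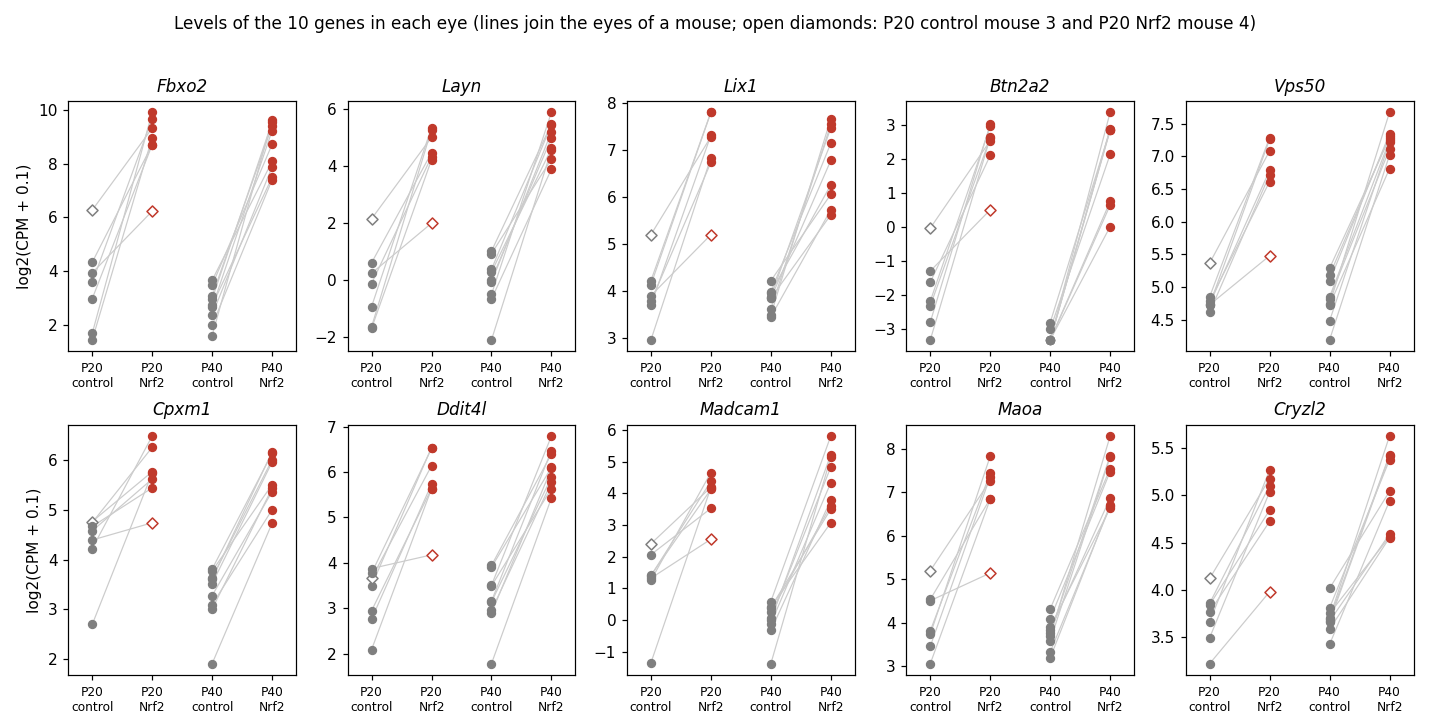
Level of each gene, as log2(CPM + 0.1), in every eye, with lines joining the eyes of a mouse and open diamonds marking the libraries labelled control of P20 mouse 3 and Nrf2 of P20 mouse 4. Each line rises from control to Nrf2 eye, and at P40 the groups do not overlap for any of the 10 genes.

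*Fbxo2* and *Vps50* act in protein turnover and membrane traffic. *Fbxo2* (chr4:148160621-148166424, plus strand) encodes an F-box protein that brings glycoproteins carrying high-mannose sugars to the SCF ubiquitin ligase. In P20 control eyes its lowest, median, and highest levels were 2.62, 11.9, and 77.1 CPM, and in P20 Nrf2 eyes they were 75.1, 500.2, and 961 CPM. At P40 they were 2.94, 6.52, and 12.6 CPM in control eyes and 169, 420.2, and 785 CPM in Nrf2 eyes. The P20 groups met only through the libraries of mice 3 and 4, and the P40 groups were far apart. The log2 fold change was 5.30 (SE 0.86) at P20, 6.34 without mice 3 and 4, and 5.83 (SE 0.40) at P40, which is 56.8-fold. Per length of exon *Fbxo2* was the most abundant of the 10 in P40 Nrf2 eyes, with a mean of 352 CPM per kb, against 41.5 CPM per kb for *Maoa*, the next in order.

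*Vps50* (chr6:3498382-3603531, plus strand) encodes the subunit that distinguishes the EARP complex, which tethers vesicles for recycling from endosomes, from the related GARP complex. Among control eyes, the lowest, median, and highest levels were 24.4, 26.6, and 41.1 CPM at P20 and 18.1, 28.2, and 38.9 CPM at P40. With Nrf2 they were 44.5, 110.2, and 156 CPM at P20 and 112, 152, and 204 CPM at P40. The groups did not overlap at either age. Within mice, the log2 fold change was 1.90 (SE 0.19) at P20 and 2.37 (SE 0.15) at P40, or 5.17-fold.

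The 3 genes of cell-surface proteins started from low levels. *Layn* (chr9:51054640-51077094, minus strand) encodes layilin, a C-type lectin receptor for hyaluronan. In control eyes its lowest, median, and highest levels were 0.208, 0.815, and 4.32 CPM at P20 and 0.132, 0.907, and 1.91 CPM at P40. In Nrf2 eyes they were 3.87, 22, and 40.6 CPM at P20 and 14.7, 31.6, and 59.0 CPM at P40. The log2 fold change was 4.69 (SE 0.76) at P20, 5.66 without mice 3 and 4, and 5.11 (SE 0.40) at P40. *Btg4*, on the opposite strand, overlaps the *Layn* locus without sharing exon bases. It held 1 count in all in P20 control eyes and 57 in P20 Nrf2 eyes, 0 and 58 at P40, and at most 0.717 CPM in any eye.

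*Madcam1* (chr10:79664559-79668537, plus strand) encodes an adhesion molecule of the vessel wall that binds the lymphocyte integrin made of alpha 4 and beta 7. Lowest, median, and highest levels in control eyes were 0.291, 2.53, and 5.20 CPM at P20 and 0.284, 0.945, and 1.40 CPM at P40. The Nrf2 eyes stood at 5.75, 18, and 25 CPM at P20 and 8.28, 20.05, and 55.9 CPM at P40. No Nrf2 eye overlapped a control eye of its age, although the P40 Nrf2 eyes spread widely. On the log2 scale the change was 2.65 (SE 0.53) at P20 and 4.47 (SE 0.42) at P40. None of the 8 endothelial markers passed the test with Nrf2 at either age. Of all genes, 2.93% were called higher at P20, and 3.33% higher and 1.23% lower at P40. At such shares a count of 0 in so short a list is no result about vessel cells.

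*Btn2a2* (chr13:23477676-23488857, minus strand) encodes a butyrophilin, a relative of the B7 molecules that restrains T cells. It was the gene nearest to absence in control eyes. At P20 its control levels ran from 0 to 0.876 CPM with a median of 0.120 CPM, and its levels in Nrf2 eyes from 1.32 to 8.00 CPM with a median of 6.03 CPM. At P40, 7 of the 9 control libraries had no count and the other 2 had 1 count each, whereas the Nrf2 libraries held 1794 counts in all, with levels of 0.906 to 10.2 CPM and a median of 7.03 CPM. The ratio of summed, depth-corrected counts at P40 was 854, with an exact 95% interval of 236 to 7056 that covers counting error only. At P20 it was 24.4 (interval 18.8 to 32.2), from 60 counts in control eyes, 31 of them in the library labelled control of mouse 3, and 1275 in Nrf2 eyes. Without mice 3 and 4 it was 63.6 (interval 40.5 to 106), from 19 and 1074 counts. The fitted log2 fold change at P20 was 4.94 (SE 0.88), and 6.08 without these mice. The Nrf2 eyes of P40 mice 3, 6, and 8 held 0.906, 1.58, and 1.46 CPM, and the other 6 held 4.28 to 10.2 CPM.

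The enzymes and their relatives began with control levels near those of *Vps50* or below. *Maoa* (chrX:16619698-16687818, plus strand) encodes monoamine oxidase A, an enzyme of the outer mitochondrial membrane that oxidizes serotonin and noradrenaline. In control eyes its lowest, median, and highest levels were 8.19, 13.9, and 36.5 CPM at P20 and 8.99, 13.4, and 19.8 CPM at P40. In Nrf2 eyes they were 35.2, 154, and 228 CPM at P20 and 99.4, 178, and 314 CPM at P40. The log2 fold change was 2.93 (SE 0.44) at P20, 3.51 without mice 3 and 4, and 3.55 (SE 0.22) at P40, or 11.7-fold.

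*Cpxm1* (chr2:130390775-130397574, minus strand) encodes a secreted member of the carboxypeptidase family that lacks residues needed for catalysis. Across control eyes its lowest, median, and highest levels were 6.36, 23.8, and 27.1 CPM at P20 and 3.64, 11.3, and 13.9 CPM at P40. Across Nrf2 eyes they were 26.7, 53.5, and 90.0 CPM at P20 and 26.5, 45.5, and 72.0 CPM at P40. As a log2 fold change this was 1.38 (SE 0.31) at P20 and 2.28 (SE 0.15) at P40. The change of the control level with age is tested further on.

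*Cryzl2* (chr1:157458577-157492638, plus strand) encodes a protein named for its likeness to zeta-crystallin, a quinone reductase, so that it stands nearest to the redox genes. It had the smallest change of the 10. Its control levels ran from 9.20 to 17.3 CPM at P20 and from 10.6 to 16.1 CPM at P40, and its levels in Nrf2 eyes from 15.7 to 38.4 CPM and from 23.3 to 49.4 CPM. The log2 fold change was 1.14 (SE 0.13) at P20 and 1.33 (SE 0.17) at P40, or 2.51-fold.

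*Ddit4l* (chr3:137621612-137628333, plus strand) encodes a stress-induced inhibitor of the growth kinase complex mTORC1. Its lowest, median, and highest levels in control eyes were 4.16, 11.2, and 14.6 CPM at P20 and 3.34, 8.81, and 15.3 CPM at P40. Those in Nrf2 eyes were 18, 53, and 92.8 CPM at P20 and 42.9, 67.4, and 111 CPM at P40. The groups did not overlap at either age. This gave a log2 fold change of 2.55 (SE 0.34) at P20 and 2.84 (SE 0.20) at P40, or 7.14-fold.

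*Lix1* (chr17:17402672-17459387, plus strand) was first described in the developing limb and central nervous system. For control eyes the lowest, median, and highest levels were 7.69, 14.9, and 36.8 CPM at P20 and 10.9, 14.3, and 18.6 CPM at P40. For Nrf2 eyes they were 36.7, 156, and 224 CPM at P20 and 49.2, 110.04, and 204 CPM at P40. Its log2 fold change was 3.00 (SE 0.33) at P20, 3.49 without mice 3 and 4, and 2.85 (SE 0.29) at P40.

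Per length of exon, the 10 genes stood in another order in control eyes than in Nrf2 eyes. In P40 control eyes the mean levels were 5.54 CPM per kb for *Fbxo2*, 5.12 for *Cryzl2*, 4.24 for *Cpxm1*, 4.12 for *Lix1*, 3.37 for *Ddit4l*, 3.26 for *Maoa*, and 2.65 for *Vps50*, with *Madcam1* at 0.663, *Layn* at 0.416, and *Btn2a2* at 0.003. In P40 Nrf2 eyes *Lix1* followed *Maoa* at 34.5 CPM per kb, then came *Ddit4l* at 23.8, *Cpxm1* at 20.9, *Madcam1* at 17.2, *Vps50* at 13.9, *Layn* at 13.7, *Cryzl2* at 13.6, and *Btn2a2* at 2.20. *Vps50*, *Layn*, and *Cryzl2* had mean levels in these eyes that differed by less than their spread over mice.

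To see whether more transgene went with more of each transcript, log2 expression was fitted on log2 transgene CPM over the 16 Nrf2 eyes with age as a covariate. The slope was above 0 for all 10 genes, against 52.2% of all genes, and 6 of 10 passed the threshold, against 0.299% of 16744 genes tested (edgeR quasi-likelihood test, adjusted *P* under 0.05). *Ddit4l* rose by 0.73 per doubling of the transgene on the log2 scale (SE 0.09, adjusted *P* = 0.00703), *Vps50* by 0.52 (SE 0.08, adjusted *P* = 0.0238), and *Maoa* by 0.80 (SE 0.13, adjusted *P* = 0.0246). *Lix1* rose by 0.88 (SE 0.16, adjusted *P* = 0.0246), *Fbxo2* by 1.08 (SE 0.21, adjusted *P* = 0.0344), and *Cpxm1* by 0.56 (SE 0.11, adjusted *P* = 0.0355). A slope of 1 means that a transcript doubled when the transgene doubled. The slopes that did not pass were 0.86 for *Layn* (adjusted *P* = 0.0940), 0.77 for *Madcam1* (adjusted *P* = 0.116), 0.41 for *Cryzl2* (adjusted *P* = 0.126), and 0.85 for *Btn2a2* (adjusted *P* = 0.316). The Nrf2 eyes that gave the slopes had also given the rise that chose the genes. The shares of the 10 genes are therefore not independent of the choice, and nothing further is read from them.

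Most of these calls depended on single eyes. When 1 eye at a time was left out, *Ddit4l* was called in 15 of 16 fits, *Vps50* in 10, *Maoa* in 9, *Lix1* in 7, *Fbxo2* in 6, and *Cpxm1* in 5. The calls of the last 5 genes were each lost without the Nrf2 eye of P20 mouse 1, 3, 4, 6, or 7 or of P40 mouse 4. Those of *Lix1*, *Fbxo2*, and *Cpxm1* were lost as well without P20 mouse 5 or P40 mouse 1 or 7, that of *Maoa* without P40 mouse 7, those of *Fbxo2* and *Cpxm1* without P40 mouse 5, and that of *Cpxm1* without P40 mouse 8. The library labelled Nrf2 of P20 mouse 4, the eye with the least transgene, was the one whose absence removed all 6. Without it no gene of the table passed the threshold, and the slopes of the 10 genes were 0.98 for *Fbxo2*, 0.58 for *Layn*, 1.01 for *Lix1*, 0.79 for *Btn2a2*, 0.42 for *Vps50*, 0.78 for *Cpxm1*, 0.73 for *Ddit4l*, 1.01 for *Madcam1*, 0.77 for *Maoa*, and 0.41 for *Cryzl2*. All 10 slopes stayed above 0, and that of *Layn* moved the most. Their adjusted *P* values by edgeR then lay between 0.202 for *Ddit4l* and 0.598 for *Btn2a2*, and all but *Btn2a2* had an unadjusted *P* under 0.05. In the other direction, leaving out the Nrf2 eye of P40 mouse 3 raised the number of calls to 217 genes, 9 of them among the 10. That eye had the second highest transgene level at P40, 9144 CPM, together with the lowest levels of *Madcam1* (8.28 CPM) and *Btn2a2* (0.906 CPM) of the 9 Nrf2 eyes.

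**Figure D2:**
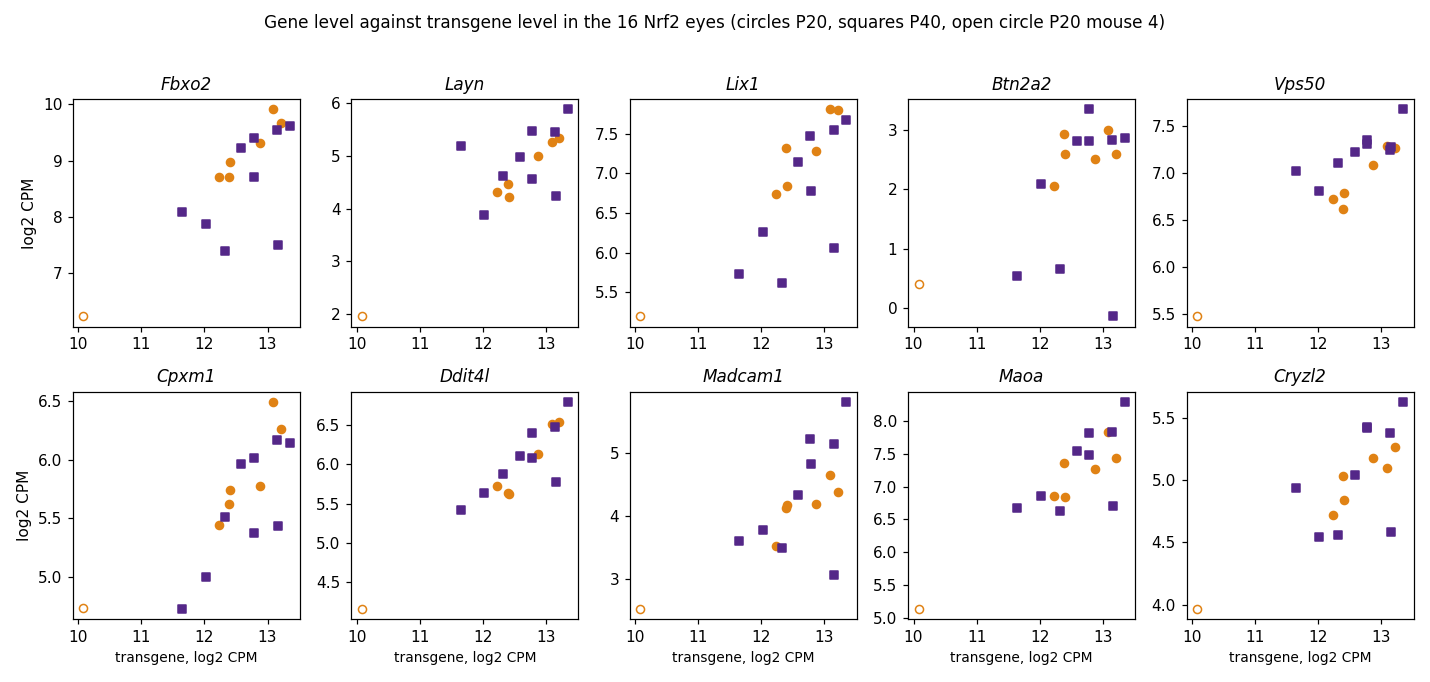
Level of each gene against the level of the transgene in the 16 Nrf2 eyes, both as log2 CPM, with circles for P20, squares for P40, and an open circle for the library labelled Nrf2 of P20 mouse 4. That library lies farthest left in each panel, at 1082 CPM of transgene, and the P40 eyes scatter more widely than the other P20 eyes for *Fbxo2*, *Btn2a2*, and *Lix1*.

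**Figure D3:**
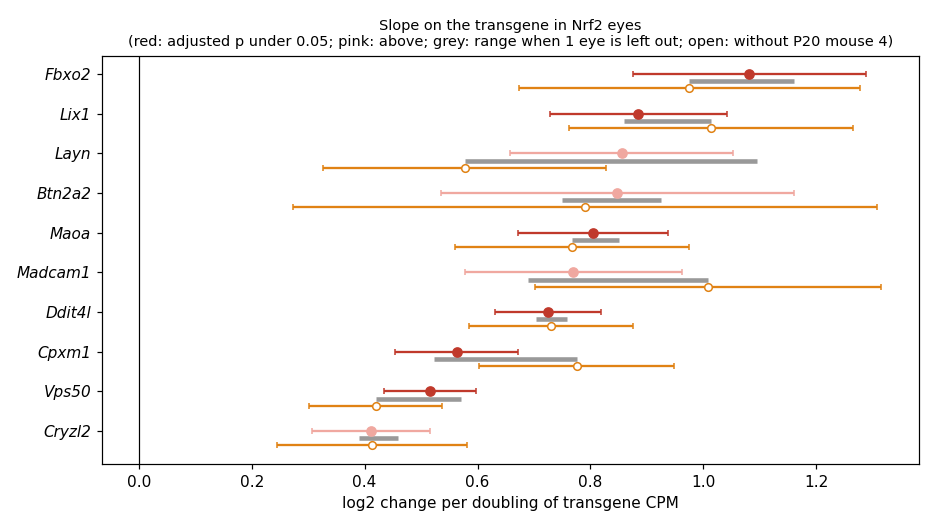
Slope of each gene per doubling of the transgene with its standard error over the 16 Nrf2 eyes, the range of slopes when 1 eye at a time was left out, and the slope without P20 mouse 4. All slopes and ranges lie above 0, from 0.41 for *Cryzl2* to 1.08 for *Fbxo2*, and 6 passed the threshold with all eyes.

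Within each age, the relation was tested for every gene by exact two-sided permutation of the transgene levels among the eyes, with adjustment over all genes. At P20, over 7 eyes, Pearson's r ran from 0.919 for *Cpxm1* to 0.995 for *Layn*, and all 10 had an exact permutation *P* under 0.05, where 10.2% of all genes had such a *P* with a positive r. Spearman's rho ran from 0.571 for *Btn2a2* (exact permutation *P* = 0.200, adjusted *P* = 0.493) to 0.964 for *Fbxo2* (exact permutation *P* = 0.00278, adjusted *P* = 0.151). None of 16302 genes passed after adjustment, and the smallest adjusted exact *P* among the 10 was 0.0889. Without mice 1 and 4, whose transgene levels were farthest from the median, r was between 0.539 for *Btn2a2* and 0.964 for *Layn*, and 5 of 10 kept an exact permutation *P* under 0.05. Without mouse 4 alone, r ran from 0.403 for *Btn2a2* to 0.975 for *Layn*, and 8 of 10 kept such a *P*. *Btn2a2* (exact permutation *P* = 0.428) and *Maoa* (exact permutation *P* = 0.0861) did not.

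At P40, over 9 eyes, the coefficients were lower. Pearson's r was 0.822 for *Vps50* (exact permutation *P* = 0.00514, adjusted *P* = 0.750), 0.801 for *Ddit4l* (exact permutation *P* = 0.00993, adjusted *P* = 0.817), 0.798 for *Cpxm1* (exact permutation *P* = 0.0104, adjusted *P* = 0.817), and 0.678 for *Lix1* (exact permutation *P* = 0.0494, adjusted *P* = 0.992). Spearman's rho was 0.85 for *Vps50* (exact permutation *P* = 0.00607, adjusted *P* = 1) and 0.700 for *Ddit4l* (exact permutation *P* = 0.0433, adjusted *P* = 1). The other 6 had r of 0.351 to 0.673, each positive, and 3.02% of all genes had a positive r with an exact *P* under 0.05. Without mice 1 and 8, r was 0.729 for *Vps50* (exact permutation *P* = 0.0480) and between 0.117 and 0.552 for the other 9, each positive. Over these 7 eyes *Ddit4l*, *Cpxm1*, and *Lix1*, with r of 0.552, 0.385, and 0.520, no longer had an exact permutation *P* under 0.05. The smaller number of eyes and the absence of mice 1 and 8 cannot be told apart here.

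Across the 16 Nrf2 eyes the 10 genes also varied with each other. After centring on each age, the median Pearson's r over their 45 pairs was 0.864, from 0.552 for *Btn2a2* with *Vps50* to 0.972 for *Lix1* with *Maoa*. Without the library of P20 mouse 4 the median was 0.798, and the range was 0.307 to 0.966. The eyes share the transgene level, so these values describe and do not test. The genes whose pattern was most like that of each member among 11771 genes included *Gclm* for *Fbxo2* (r = 0.985), *Nampt* for *Lix1* (0.982), *Ush1c* for *Ddit4l* (0.980), *Prdx6* for *Cryzl2* (0.956), and *Rida* for *Layn* (0.983). *Maoa* was most like *Lix1*, *Btn2a2* most like *Tmem19* (0.968), *Vps50* most like *Rom1* (0.959), *Cpxm1* most like *Ttc39c* (0.954), and *Madcam1* most like *Gbe1* (0.954).

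Whether the genes changed from P20 to P40 was tested in each arm apart. In control eyes, 2 of the 9 genes tested passed the threshold, both lower at P40, where 6.42% of 16832 genes were called lower and 14.8% were called in either direction. For *Cpxm1* the log2 change was −1.01 (SE 0.28, adjusted *P* = 0.0323), and the highest P40 eye stood at 13.9 CPM and 6 of the 7 P20 eyes at 18.6 to 27.1 CPM. *Madcam1* changed by −1.49 (SE 0.42, adjusted *P* = 0.0331), with 6 of the 7 P20 eyes at 2.28 to 5.20 CPM and the P40 eyes at 0.284 to 1.40 CPM. For both genes the control eye of P20 mouse 6, at 6.36 and 0.291 CPM, was the P20 eye that fell among the P40 eyes. *Btn2a2* did not pass the filter on low counts in control eyes.

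Both calls were close to the threshold. Without P20 mice 3 and 4 the log2 fold change was −0.94 for *Cpxm1* (adjusted *P* = 0.101) and −1.27 for *Madcam1* (adjusted *P* = 0.110), and when single eyes were left out *Cpxm1* was called in 8 and *Madcam1* in 9 of 16 fits, with log2 fold changes of −1.17 to −0.90 and −1.69 to −1.28. Both calls were lost without the control eye of P20 mouse 1, 2, 3, 5, or 7 or of P40 mouse 5. In addition, that of *Cpxm1* was lost without P20 mouse 4 or P40 mouse 3, and that of *Madcam1* without P40 mouse 2. *Fbxo2* stood at −1.41 (SE 0.55, adjusted *P* = 0.0847; 0.0462 by DESeq2) and at −0.32 without P20 mice 3 and 4. The other 6 genes lay between −0.39 and 0.04. Melanocyte and fibroblast markers also differed with age in control eyes, with 3 of 7 and 4 of 7 lower at P40, and their part in these changes was not tested.

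In Nrf2 eyes, 0 of the 10 genes passed the threshold with age by edgeR, DESeq2, or limma voom, where 0.502% of 16745 genes did so by edgeR. None of the 10 had an unadjusted *P* under 0.05 by edgeR, where 25.8% of all genes did. The log2 fold changes ran from −0.28 (SE 0.37) for *Lix1* to 0.58 (SE 0.38) for *Madcam1*, and the smallest adjusted *P* was 0.217, for *Vps50* at 0.42 (SE 0.21). *Cpxm1*, at −0.12 (SE 0.25), and *Madcam1* did not show in Nrf2 eyes the decrease seen in control eyes, and the difference between the arms is the one fitted next.

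With all mice, the fitted Nrf2 effect was larger at P40 than at P20 for 9 of the 10 genes, *Lix1* being the exception. This count depended on P20 mice 3 and 4. Without them the P20 log2 fold changes of *Fbxo2* and *Layn*, 6.34 and 5.66, exceeded those at P40, 5.83 and 5.11. *Ddit4l* changed order as well when P20 mouse 4 alone was left out, with 2.86 at P20 and 2.84 at P40. For the difference between ages, 0 of 10 passed the threshold, where 0.00557% of 17959 genes did (edgeR quasi-likelihood test). Before adjustment, 3 of 10 and 2.39% of all genes had a *P* under 0.05. The difference is built from the contrasts that chose the genes, so nothing further is read from these counts. By this edgeR fit over all 32 libraries they were *Madcam1*, with a log2 difference of 1.83 (SE 0.67), *Cpxm1*, with 0.90 (SE 0.33), and *Btn2a2*, whose fitted difference depends on the near absence of counts in P40 control eyes and is not given. The adjusted *P* was 1.00 for all 10, and none passed under any alternative. DESeq2 and limma voom also called 0 of the 10.

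**Figure D4:**
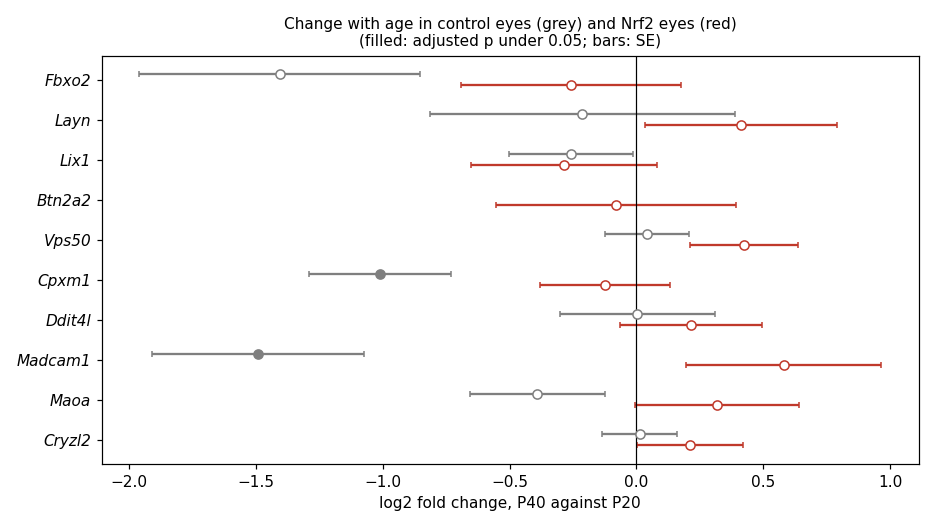
Log2 fold change from P20 to P40 of each gene in control eyes (grey) and in Nrf2 eyes (red), with standard errors and filled points for an adjusted *P* under 0.05. Only *Cpxm1* (−1.01) and *Madcam1* (−1.49) in control eyes have filled points, and *Btn2a2* has no value in control eyes.

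The nearest relatives of the 10 genes, come from a list chosen with earlier results known. Of 14 relatives, 13 were tested, and with Nrf2 1 was higher and 0 lower at P20, and 1 was higher and 1 lower at P40 (edgeR quasi-likelihood test). Of all genes tested, 2.93% were called higher at P20, and 3.33% higher and 1.23% lower at P40. *Maob*, the other monoamine oxidase, was higher by 1.13 (SE 0.20, adjusted *P* = 0.0223) at P20 and by 0.76 (SE 0.17, adjusted *P* = 0.0244) at P40. *Fbxo27*, which like *Fbxo2* recognizes glycoproteins, fell by 0.66 at P40 (log2 fold change −0.66, SE 0.17, adjusted *P* = 0.0435). *Cpz* had 0.87 (SE 0.24, adjusted *P* = 0.0732) and *Fbxo44* had 0.33 (SE 0.17, adjusted *P* = 0.472) at P40. The median over the relatives was 0.13 at P20 and 0.02 at P40.

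**Figure D5:**
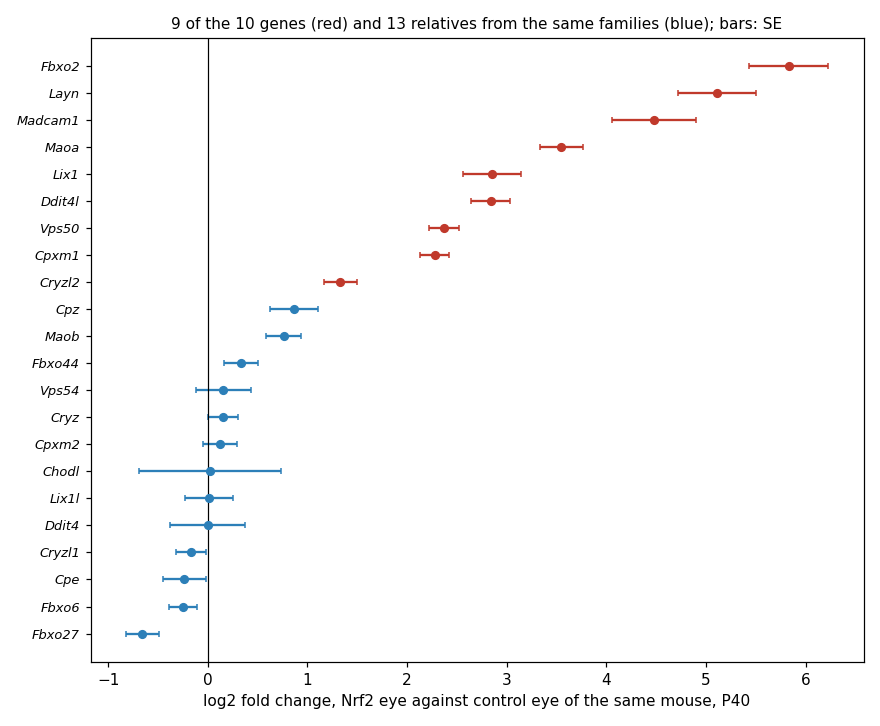
Log2 fold change with Nrf2 at P40, with standard errors, for 9 of the 10 genes (red) and 13 relatives from the same families (blue). *Btn2a2* is left out because its fitted value depends on the prior count. The highest relative was *Cpz* at 0.87, and the lowest of the 9 was *Cryzl2* at 1.33. The 9 genes were picked for their rise in this contrast, so nothing is read from that order. At P20, which is not drawn, *Maob* stood at 1.13 and *Cryzl2* at 1.14.

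Known partners of the encoded proteins were described in the same way. None of 6 SCF partners of *Fbxo2* and none of 7 other EARP and GARP subunits or partners passed the test with Nrf2 at either age. Nor did any of 8 further inhibitors of mTORC1, 9 genes of hyaluronan binding and turnover, or 7 butyrophilins and B7 relatives. With 2.93% of all genes called higher at P20, and 3.33% higher and 1.23% lower at P40, counts of 0 in such short lists are no result about these partners. The lowest adjusted *P* among the mTORC1 inhibitors was that of *Sesn2*, at 0.87 (SE 0.23, adjusted *P* = 0.0900) at P20 and 0.88 (SE 0.27, adjusted *P* = 0.108) at P40. Of 9 integrins and adhesion molecules related to *Madcam1*, 1 was higher at each age, *Icam1*, a ligand for leukocyte integrins, with 1.38 (SE 0.27, adjusted *P* = 0.0337) and 1.35 (SE 0.19, adjusted *P* = 0.00105). Of 7 genes of monoamine breakdown and uptake, 1 was higher at P20, *Maob*, and 2 at P40, *Maob* and *Slc29a4*, a transporter of monoamines, with 3.25 (SE 0.27, adjusted *P* = 3.28e-05). None of these lists had a member that passed the slope test on the transgene. Only 0.299% of 16744 genes passed it, so this too is no result about the partners.

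Known redox targets of Nrf2 were described beside the 10 genes, and the lists were not tested against each other. Of 20 such targets, 18 were higher at P20 and 19 at P40, with median log2 fold changes of 2.05 and 2.11, and their direction is known from other work and was not independent of the list. On the transgene, 3 of 20 passed the slope test, *Nqo1* (0.61), *Gclm* (0.84), and *Gstm1* (1.00), and the median slope was 0.64, against 0.79 for the 10 genes and 0.01 for all genes. With age in control eyes, 6 of 20 were lower at P40, against 6.42% of all genes, and in Nrf2 eyes 0 of 20 passed, against 0.502%.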

How the data were processed

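RPE RNA from both eyes of 16 mice was measured in 32 libraries. Per the study's methods, the authors amplified the RNA, aligned reads with STAR, counted them with featureCounts, and in parallel ran Salmon (version 0.9.1 in the submitters' processing notes) on mm10 with tximport. The table holds the authors' estimated counts, rounded to whole numbers, and which path made them is not stated. The kit does not mark strand. The 10 genes and all gene lists were chosen with earlier results of these data known. All 10 are named, lists are given as counts with values for at most 4 of their genes, those with the smallest *P*, and the genes most alike were those with the highest r over 16 Nrf2 eyes.

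Counts were fitted in R 4.3.3 with edgeR 4.0.16 (filterByExpr, TMM, quasi-likelihood test, mouse as a block between eyes, Benjamini-Hochberg adjustment over all genes, threshold 0.05). DESeq2 1.42.0 and limma 3.58.1 (voom) served as alternatives. The standard error was the log2 fold change divided by the root of F. Eyes were paired by the replicate number in the labels, which name no mouse, and by the paired design in the study's methods. Deviations from the group means correlated between fellow eyes with an average r of 0.0142 over P20 pairs and 0.106 over P40 pairs. Between Nrf2 and control eyes of different mice the average r was 0.00051 at P20 and −0.0055 at P40. Replicates are mice. The steps were tested on simulated data. Promoters were taken from RefSeq and gene positions from GENCODE, both on GRCm38.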

Additional observations from a re-analysis of the deposited data

Results flagged for a closer look

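Of 40 groups tested, 10 genes in each of 4 groups, 6 had an eye that stood far from the others by Dixon's ratio, which chance alone gives in about 1 of 20 groups. In 5 of them it was a P20 library, labelled control of mouse 3, that carried the transgene at 1098 CPM. It held 77.1 CPM of *Fbxo2* (20.01 CPM in the next control eye), 4.32 CPM of *Layn* (1.41 CPM), 36.8 CPM of *Lix1* (18.6 CPM), 0.876 CPM of *Btn2a2* (0.307 CPM), and 41.1 CPM of *Vps50* (28.7 CPM). The 6th was the control eye of P20 mouse 6, which held 6.36 CPM of *Cpxm1*, below the next lowest P20 control eye at 18.6 CPM. The causes were not tested.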

How the results depend on the processing

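The median log2 fold change of the 10 genes with Nrf2 was 2.54 to 3.31 over the alternatives at P20 and 2.84 to 3.36 over those at P40, and no gene changed sign. No fit without P20 mice 3 and 4 applies at P40, whose fit holds no P20 library. Without the replicate block the medians were 2.73 and 3.32. With a replicate block on the numbers 1 to 7, which at the 2 ages belong to different mice and which leaves out P40 mice 8 and 9, 0 of the 10 genes and 191 genes in all were called with age in control eyes and 0 and 3 in Nrf2 eyes, so that of the 10 *Cpxm1* and *Madcam1* lost their calls, and the block and the fewer mice cannot be told apart. For age in control eyes, with 2 of the 10 and 2483 genes called, all genes called were 4383 by DESeq2, 3747 by limma voom, 914 without a filter on low counts, and 158 without P20 mice 3 and 4. Among the 10, there was 1 with at least 10 counts in every library, a filter that *Madcam1* does not pass, and there were 0 without P20 mice 3 and 4 and 0 with the transgene as a covariate. Leaving out single eyes gave 0 to 2 of the 10 and 473 to 4273 genes. For age in Nrf2 eyes, with 84 genes called, the counts were 1832 by DESeq2, 2213 by limma voom, 31 without a filter, 20 without P20 mice 3 and 4, 496 in one fit over all 32 libraries, and 21 to 190 without single eyes. For the difference between ages, with 1 gene called, DESeq2 called 12. For the slope on the transgene, with 6 of the 10 and 50 genes called, the counts were 10 and 634 by DESeq2 and 986 genes by limma voom. They were 1 and 4 without a filter, 0 and 0 without P20 mice 3 and 4, 0 and 0 in P40 eyes alone, 1 and 9 with the transgene on a linear scale, and 0 and 0 with the difference of the transgene between eyes. In P20 eyes alone 282 genes were called, and without single eyes 0 to 9 of the 10 and 0 to 217 genes. The slopes of the 10 genes were positive in every one of these fits. Of the 10, those with an exact permutation *P* under 0.05 numbered 10 at P20 and 5 without the 2 eyes farthest from the median transgene level, and 4 and 1 at P40. Except where fewer libraries entered the fit, the cause was not tested. Depth limits *Btn2a2* in control eyes, where most libraries are at or below 3 counts.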

Other observations

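The genes on either side of each of the 10 were looked up after the values had been seen. Of these 20 neighbours, most were not called with Nrf2. *4833427G06Rik*, which lies 4.0 kb from *Layn* on the same strand, was called higher by edgeR at both ages, with a log2 fold change of 6.34 in P20 mice (adjusted *P* = 0.0187) and 7.44 in P40 mice (adjusted *P* = 0.000125). Its control eyes at P40 held 13 counts in all and its Nrf2 eyes 1878, with levels of 2.56 to 9.38 CPM. *Maob*, 21.5 kb from *Maoa*, was the other neighbour called at both ages. *Gngt1*, a rod transducin subunit 390 kb from *Vps50*, was lower at P40 (−4.18, adjusted *P* = 0.0216). *Fbxo44* ends 0.139 kb from *Fbxo2*, and without strand their reads could be told apart only by exon.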
